A study of Rattus norvegicus with 8 samples.

Results

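The cytosolic and mitochondrial heat shock chaperones were examined as 10 genes: Hspa8, Hspa4, Hsph1, Dnajb1, Hsp90aa1, Hsp90ab1, Hspb1, Hspa9, Hspd1 and Hspe1. They were chosen by name, and their probes were found through the RefSeq accession printed for each probe. This gave 16 probes for 9 of the 10 genes, out of 30367 probes and 15168 named genes on the array; no probe was matched to Dnajb1, which is not analysed here. The data are 8 single-colour Agilent arrays of total RNA from whole liver of male rats aged 22 weeks. Of these, 5 are of rats fed high fat diet for 14 weeks, labelled NAFLD (non-alcoholic fatty liver disease), and 3 are of rats fed standard chow, labelled as controls. By its title the study asked about fatty liver and the metabolism of glucose and lipids. The labels give no strain, no composition of the diet and no statement that each sample is a separate animal, so the p-values measure only the spread between these samples.

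Heat shock proteins are molecular chaperones: they bind unfolded or partly folded proteins and help them fold, cross membranes or reach degradation. In the cytosol an Hsp70 such as Hspa8 takes clients from J-domain proteins, hands many of them on to Hsp90, and is reset by nucleotide exchange factors such as Hspa4 and Hsph1. In mitochondria Hspa9 pulls proteins through the inner membrane, and the Hspd1 and Hspe1 chamber folds them. The transcription factor Hsf1 switches many of these genes on during heat or other protein stress by binding heat shock elements, inverted repeats of the letters GAA. Liver, which makes most plasma proteins and has many mitochondria, carries these chaperones at a high level without stress.

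The upstream sequences of 3 genes show the heat shock element that some of these chaperones share, and are shown because Hspd1 and Hspe1 are read in opposite directions from 1 promoter. The sequences are from RefSeq on the GRCr8 assembly, are the 250 bases before the gene's start, and run 5′ to 3′ on the plus strand. Capitals mark each match, on either strand, to the letters GAA, TTC and GAA in that order with 2 free bases between them; overlapping matches are joined.
Hspe1, chr9:64084077-64084326: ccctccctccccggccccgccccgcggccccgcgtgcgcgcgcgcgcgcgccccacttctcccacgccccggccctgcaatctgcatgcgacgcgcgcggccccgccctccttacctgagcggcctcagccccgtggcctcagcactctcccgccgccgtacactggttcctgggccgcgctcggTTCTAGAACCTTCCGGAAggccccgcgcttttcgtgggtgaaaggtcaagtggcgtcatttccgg
Hspa8, chr8:50080264-50080513: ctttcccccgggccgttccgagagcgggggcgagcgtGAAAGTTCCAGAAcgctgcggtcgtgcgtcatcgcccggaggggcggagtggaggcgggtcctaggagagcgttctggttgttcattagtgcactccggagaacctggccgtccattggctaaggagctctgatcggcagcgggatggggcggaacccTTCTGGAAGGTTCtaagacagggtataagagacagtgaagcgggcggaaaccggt
Hsph1, chr12:10427118-10427367: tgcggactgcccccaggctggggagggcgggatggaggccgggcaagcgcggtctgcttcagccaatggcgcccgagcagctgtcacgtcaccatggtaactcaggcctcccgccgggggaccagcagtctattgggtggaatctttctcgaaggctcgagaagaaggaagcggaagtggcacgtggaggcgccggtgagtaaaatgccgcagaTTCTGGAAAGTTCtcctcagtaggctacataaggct

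The starts of Hspd1 and Hspe1 lie 290 bases apart, facing away from each other, and the joined element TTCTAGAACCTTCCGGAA begins 65 bases before the start of Hspe1. Hspa8 has an element beginning 55 bases and another beginning 213 bases before its start, and Hsph1 has one 36 bases before. Windows of 300 bases (250 before and 50 after the start) were held for 9 of the 10 genes, and 4 of the 9, those of Hspa8, Hspd1, Hspe1 and Hsph1, contain the element. The windows of Hspd1 and Hspe1 hold the same copy. Of all 33469 such windows 0.798% contain it. The shorter repeat GAANNTTC, which also forms part of the longer element, was present in 7 of the 9 windows, including those of Hspb1, Hspa9 and Dnajb1, and in 8.59% of all windows. Its counterpart TTCNNGAA, likewise a part of the element, was in 5 of the 9 and in 8.77% of all. These matches describe letters and are not binding sites.

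None of the 16 chaperone probes passed the test between diets. Values below are log2 signals from which the array's own 75th percentile was subtracted, so 0 is that percentile and 1 unit is a 2-fold difference. Differences are high fat minus chow, tested with limma (two-sided, Benjamini-Hochberg adjusted over all 25627 probes with a fitted value, threshold 0.05). By this test 0 of 16 chaperone probes passed, where 3.45% of all probes did; 3 of the 16 had an unadjusted p under 0.05, against 20.1% of all probes. The adjusted p of the 16 ran from 0.17 to 0.979 and the differences from −0.59 (Hspa8 probe 4) to 0.46 (Hsp90aa1 probe 2). The median over the 16 was −0.22, beside 0.00122 over all probes, with 10 probes below 0 and 6 above. Limma-trend also called 0 of the 16. The 95% intervals of 14 of the 16 lay wholly within a 2-fold change in either direction. The number of arrays limits the precision, and in whole liver fewer cells of a type and less RNA per cell cannot be told apart. The probes of a gene are numbered by their mean signal and share the same 8 RNA samples, so they are not replicates of each other. Each of the 16 probes had 1 spot on the array and was well above background on every array where it was measured.

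The arrays themselves differed with diet. No slide held arrays of both diets, so slide and diet cannot be told apart: high fat arrays 1 and 4 shared slide 1, high fat arrays 2, 3 and 5 slide 2, and the chow arrays slide 3. High fat arrays had 79.0% to 92.7% of their probes above background, and chow arrays 66.9% to 71.7%. The count of all probes passing, 884, was 481 without high fat array 2 and 402, 458 and 462 without chow array 1, 2 or 3; the chaperone count was 0 in each of the 8 fits that left out 1 array. All 8 hepatocyte markers (Alb, Apoa1, Ttr, Tf, Fgb, Cyp2e1, Cps1 and Serpina1) were above background on every array. None of the 8 passed (limma adjusted p from 0.174 upward; 3 at an unadjusted p under 0.05), and all 8 differences were below 0, with a median of −0.37. All 8 lie in the brightest decile of probes, whose median difference was −0.24 and upper quartile −0.05. Their summed linear level was 631 to 740 times the 75th percentile on high fat arrays and 656 to 1074 times on chow arrays.

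**Figure D1:**
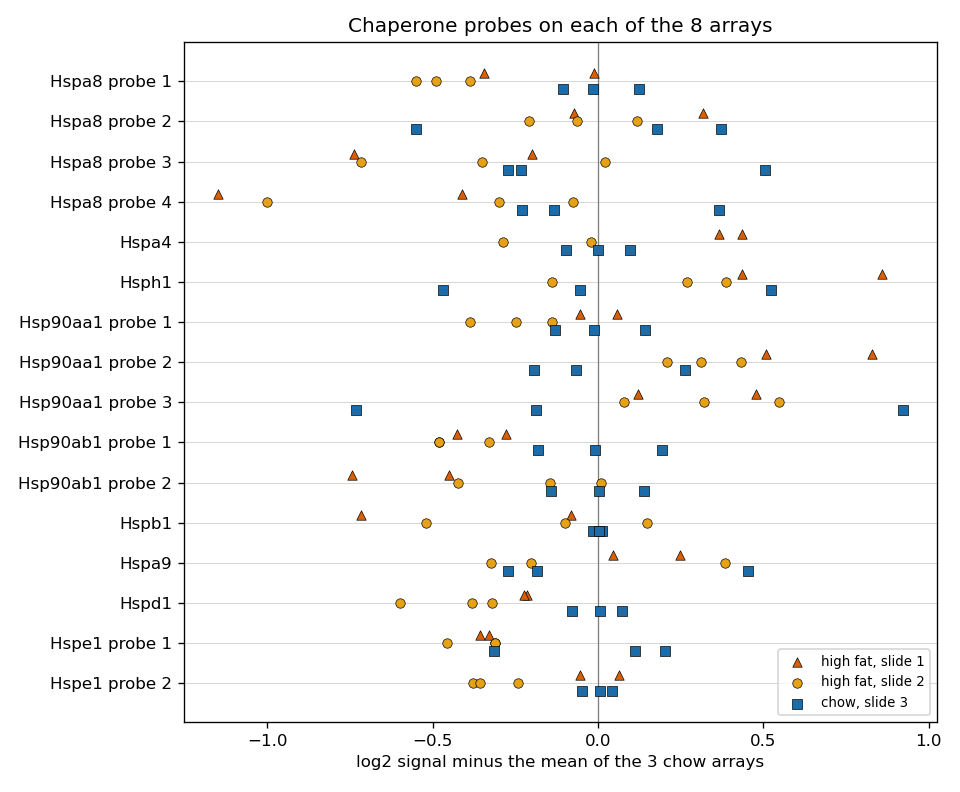
Log2 signal of each of the 16 chaperone probes on each array (x axis, log2 units) minus the mean of the 3 chow arrays; triangles and circles are high fat arrays of slides 1 and 2, squares are chow arrays. The diets separate without overlap for 2 of the 16 probes, Hsp90ab1 probe 1 and Hspd1, both with the high fat arrays lower. The same held for 8.98% of all probes and 23.5% of the brightest decile, in which both lie.

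Hspa8, the constitutive Hsp70 of the cytosol (also known as Hsc70), had 4 probes, whose differences ran from −0.59 to 0.02. Probe 1 (A_64_P023392) read, in replicate order, 5.26, 5.05, 5.11, 5.59 and 5.22 on the high fat arrays and 5.59, 5.50 and 5.73 on the chow arrays. High fat array 4 lay within the chow range and the other 4 below it. The difference was −0.36 ± 0.16 (SE; limma adjusted p = 0.264). Probe 2 (A_64_P061286) read 3.73, 3.60, 3.74, 4.12 and 3.92 on high fat arrays and 3.26, 4.18 and 3.98 on chow arrays. Here the chow arrays spanned all high fat values, and the difference was 0.02 ± 0.23 (SE; adjusted p = 0.979).

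Hspa8 probe 3 (A_64_P096381) read 2.19, 2.21, 2.95, 2.73 and 2.57 on high fat arrays and 2.69, 3.43 and 2.65 on chow arrays, a difference of −0.40 ± 0.25 (SE; limma adjusted p = 0.431). Probe 4 (A_64_P014723) read 0.66, 0.80, 1.73, 1.39 and 1.51 on high fat arrays and 1.58, 2.17 and 1.67 on chow arrays, a difference of −0.59 ± 0.28 (SE; adjusted p = 0.29). On both probes high fat arrays 1 and 2 were the lowest and chow array 2 the highest. The groups overlapped on all 4 probes.

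Pairs of Hspa8 probes were compared through their difference on each array, which removes any factor common to the whole array. Of these 6 pairs the largest change with diet was between probes 2 and 4, whose difference averaged 2.61 ± 0.41 (SD, n = 5) on high fat and 2.00 ± 0.32 (SD, n = 3) on chow. The exact permutation test (two-sided, 56 splits of the 8 arrays) gave p = 0.0714, or 0.271 after Benjamini-Hochberg adjustment over 19 such pairs among the chaperones. None of the 19 pairs passed after adjustment (smallest 0.226). The smallest two-sided p that this test can give with the 56 splits is 0.0357. A few pairs at that p cannot pass an adjustment over 19, so the adjusted values do not decide whether the pairs differ.

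Hspa4 and Hsph1 are the Hsp110-type partners of Hspa8, which release its nucleotide and so let go of the client. Hspa4 (A_64_P060809) read 2.86, 2.47, 2.21 and 2.93 on the first 4 high fat arrays and 2.59, 2.40 and 2.50 on chow arrays; its only spot on high fat array 5 was marked as an outlier and was left out. The 2 arrays of slide 1 lay above all chow values, and the measured arrays of slide 2 lay below or within them. The difference was 0.12 ± 0.21 (SE, n = 4 and 3; limma adjusted p = 0.806), and −0.0046 with the outlier spot kept. Hsph1 (A_44_P121374), which is induced by heat in many cells, read −0.63, −1.21, −0.80, −0.21 and −0.68 on high fat arrays and −1.12, −0.54 and −1.53 on chow arrays. Its groups overlapped, with chow array 2 above 4 of the 5 high fat arrays, and the difference was 0.36 ± 0.28 (SE; adjusted p = 0.519).

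The 2 cytosolic Hsp90 genes had differences of opposite sign on some of their probes. Hsp90ab1 encodes the constitutive form. Its probe 1 (A_64_P140020) read 3.70, 3.65, 3.80, 3.85 and 3.65 on high fat arrays and 3.95, 4.12 and 4.32 on chow arrays. All high fat arrays lay below all chow arrays, and the difference was −0.40 ± 0.14 (SE; limma adjusted p = 0.17, unadjusted 0.0215), the smallest p among the 16 probes. Probe 2 (A_64_P045716) read 1.77, 2.09, 2.53, 2.06 and 2.37 on high fat arrays and 2.38, 2.66 and 2.52 on chow arrays. It overlapped between diets, with a difference of −0.35 ± 0.19 (SE; adjusted p = 0.353). With normexp followed by quantile normalization both probes stood at 0.028. They stood at −0.046 and −0.0087 with a normexp background alone, and at −0.20 and −0.23 with quantile normalization alone.

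Hsp90aa1 encodes the form that responds more to stress. Its probe 1 (A_64_P119852) read 5.16, 4.97, 4.83, 5.27 and 5.08 on high fat arrays and 5.21, 5.36 and 5.09 on chow arrays, a difference of −0.15 ± 0.15 (SE; limma adjusted p = 0.634). Probe 2 (A_64_P023633) read 3.83, 3.64, 3.54, 4.16 and 3.76 on high fat arrays and 3.26, 3.59 and 3.13 on chow arrays. Only chow array 2 reached the high fat range, and the difference was 0.46 ± 0.19 (SE; adjusted p = 0.218). Probe 3 (A_44_P299870) read 1.45, 1.40, 1.87, 1.80 and 1.64 on high fat arrays and 1.14, 2.25 and 0.59 on chow arrays. Its chow values lay on both sides of all high fat values, with an SD of 0.84, and the difference was 0.31 ± 0.34 (SE; adjusted p = 0.671). Leaving out chow array 3 gave −0.057, and leaving out chow array 2 gave 0.77.

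Taken on each array, Hsp90aa1 probe 1 minus probe 2 was 1.28 ± 0.09 (SD, n = 5) on high fat and 1.89 ± 0.10 (SD, n = 3) on chow, with no overlap (1.12 to 1.33 against 1.77 to 1.95). The gap between the 2 probes of this gene was thus smaller by 0.61 on high fat arrays (exact permutation p = 0.0357, two-sided, and 0.226 after adjustment over the 19 pairs). The pairs were chosen after values were seen, and diet cannot be told apart from slide here. Between the genes, Hsp90aa1 probe 2 minus Hsp90ab1 probe 1 averaged 0.05 ± 0.21 (SD, n = 5) on high fat and −0.80 ± 0.34 (SD, n = 3) on chow (exact permutation p = 0.0357, adjusted 0.226). With Hsp90ab1 probe 2 in place of probe 1 the values were 1.62 ± 0.46 (SD, n = 5) and 0.81 ± 0.17 (SD, n = 3), with the same p. The other 4 pairs between the 2 genes had differences of 0.20 to 0.71 in the same direction and exact permutation p of 0.143 or more. Both pairs between the genes that reached 0.0357, the smallest p this test can give, involve 1 of the 3 Hsp90aa1 probes. No pair passed after adjustment, which pairs at this p could not do unless many more of the 19 reached it. Probe sequences were not used here, so cross-hybridisation to gene copies was not tested.

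Hspb1, a small heat shock protein that holds unfolded clients and binds actin (also known as Hsp27), had 1 probe (A_44_P992908). It read 1.98, 2.18, 2.60, 2.62 and 2.85 on high fat arrays and 2.68, 2.71 and 2.70 on chow arrays. The chow values lay within 0.03 of each other while the high fat values spread on both sides of them. The difference was −0.25 ± 0.21 (SE; limma adjusted p = 0.56).

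In mitochondria, the folding chamber Hspd1 (also known as Hsp60) and its lid Hspe1 (also known as Hsp10) had differences of −0.35 to −0.19, without passing the test. Their probes lie in the brightest decile of all probes, whose median difference was −0.24. Hspd1 (A_64_P076567) read 5.33, 5.17, 4.95, 5.32 and 5.23 on high fat arrays and 5.55, 5.47 and 5.62 on chow arrays. All high fat arrays lay below all chow arrays, with a difference of −0.35 ± 0.14 (SE; limma adjusted p = 0.225, unadjusted 0.0399). Hspe1 probe 1 (A_43_P11636) read 5.56, 5.61, 5.46, 5.59 and 5.61 on high fat arrays and 6.03, 5.60 and 6.12 on chow arrays. Chow array 2 lay within the high fat range and the other chow arrays above it, for a difference of −0.35 ± 0.16 (SE; adjusted p = 0.25). Hspe1 probe 2 (A_64_P029918) read 3.98, 3.66, 3.79, 4.10 and 3.68 on high fat arrays and 4.04, 3.99 and 4.08 on chow arrays, a difference of −0.19 ± 0.15 (SE; adjusted p = 0.528).

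The genes of the shared promoter were set against each other on each array. Hspd1 minus Hspe1 probe 1 was −0.36 ± 0.12 (SD, n = 5) on high fat and −0.37 ± 0.21 (SD, n = 3) on chow (exact permutation p = 1, two-sided). Against Hspe1 probe 2 the values were 1.36 ± 0.17 (SD, n = 5) and 1.51 ± 0.03 (SD, n = 3), with an exact permutation p of 0.286 (adjusted 0.418). No difference in response between the 2 genes was thus detected, and this test, whose smallest p is 0.0357, could not show that they move together.

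Hspa9, the mitochondrial Hsp70 (also known as mortalin) that drives protein import, had 1 probe (A_64_P060766). It read 1.86, 1.49, 2.20, 2.06 and 1.61 on high fat arrays and 1.54, 2.27 and 1.63 on chow arrays. The groups overlapped across their whole range, with a difference of 0.03 ± 0.24 (SE; limma adjusted p = 0.963, 95% interval −0.51 to 0.57). Chow array 2 was again the highest of its group.

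Chow array 2 was the highest of the 3 chow arrays for 10 of the 16 chaperone probes, against 26.4% of all probes. Its 75th percentile signal was 559 intensity units, beside 300.1 and 278 on the other chow arrays. All high fat arrays were brighter than all chow arrays by this percentile, at 725 to 1045 units. The part of chow array 2 in the spread of the chow group was not tested. Within the high fat group, both arrays of slide 1 lay above all 3 arrays of slide 2 (for Hspa4 above the 2 measured) for 7 of the 16 probes and below them for 1; over all probes these shares were 20.2% and 38.3%. The 7 were Hspa8 probe 1, Hspa4, Hsph1, Hsp90aa1 probes 1 and 2, Hspd1 and Hspe1 probe 2, and the 1 was Hsp90ab1 probe 2. The shares over all probes, here and for chow array 2, were not matched for brightness, and most chaperone probes were bright. Against chow, Hsph1 differed by 0.65 for slide 1 and by 0.17 for slide 2. Hspa4 differed by 0.40 and −0.15 in the same way, and Hsp90aa1 probe 2 by 0.67 and 0.32. The 2 high fat slides were scanned on different days, so slide and scan day cannot be told apart within this group. For Hsph1 and Hspa4 the high fat slides differed from each other by more than the diets did. The same held for Hspa8 probe 2, Hsp90aa1 probe 1, Hsp90ab1 probe 2, Hspa9 and Hspe1 probe 2, and not for the other probes.

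**Figure D2:**
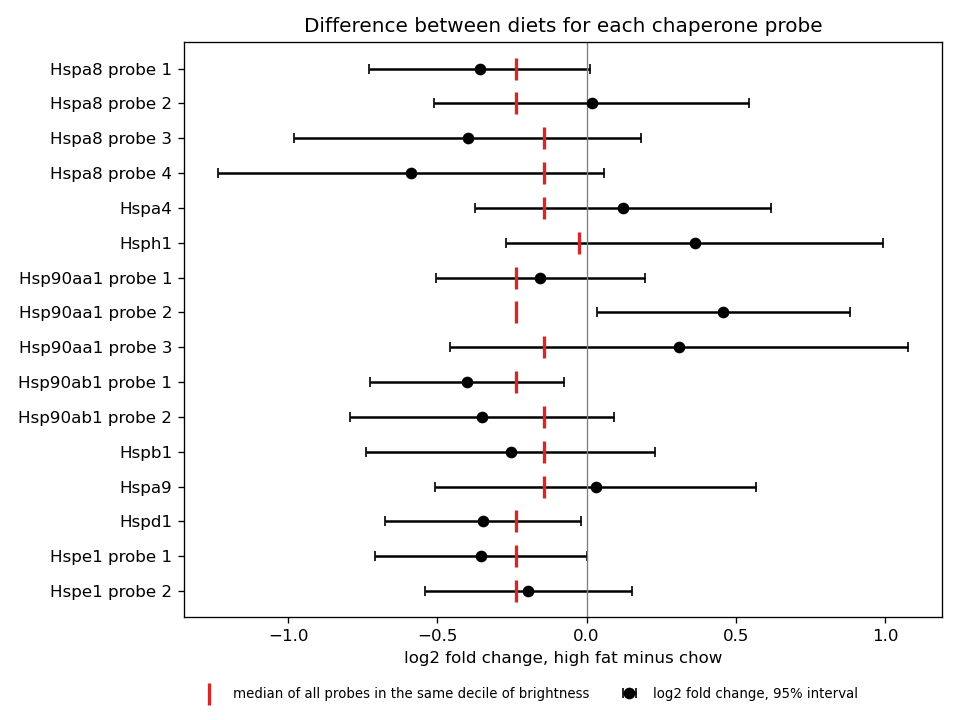
Log2 fold change (high fat minus chow) of each chaperone probe with its 95% interval from limma; red marks are the median of all probes in the same decile of brightness. Of 16 intervals, 3 exclude 0 (Hsp90aa1 probe 2, Hsp90ab1 probe 1 and Hspd1), and none of these probes passed after adjustment over all probes.

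The difference between diets fell with brightness over all probes. When all probes were ranked by mean signal and split into deciles, the median log2 difference ran from 0.53 in the dimmest decile to −0.14 in the ninth and −0.24 in the brightest. The chaperone probes were bright: 8 lay in the brightest decile, 7 in the ninth and 1 (Hsph1) in the seventh. Relative to the median of its own decile, 8 of the 16 were lower and 8 higher, with a median of −0.03. Hspd1 and Hspe1 probe 1 stood at −0.11 and −0.12 on this scale, Hspa8 probe 4 at −0.45 and Hsp90aa1 probe 2 at 0.69. The count of probes whose diets did not overlap is read against the same background. High fat arrays lay all below chow arrays for 2 of the 16, against 8.98% of all probes and 23.5% of the brightest decile, in which both of the 2 lie. High fat arrays lay all above for 0 of the 16, against 7.82%. With cyclic loess normalization, which removes differences that depend on brightness, Hspd1 stood at −0.09, Hspe1 probe 1 at −0.08 and Hspa8 probe 1 at −0.10. Hsp90ab1 probe 1 stood at −0.20 and Hsp90aa1 probe 2 at 0.64 (limma adjusted p = 0.0725) in that setting.

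**Figure D3:**
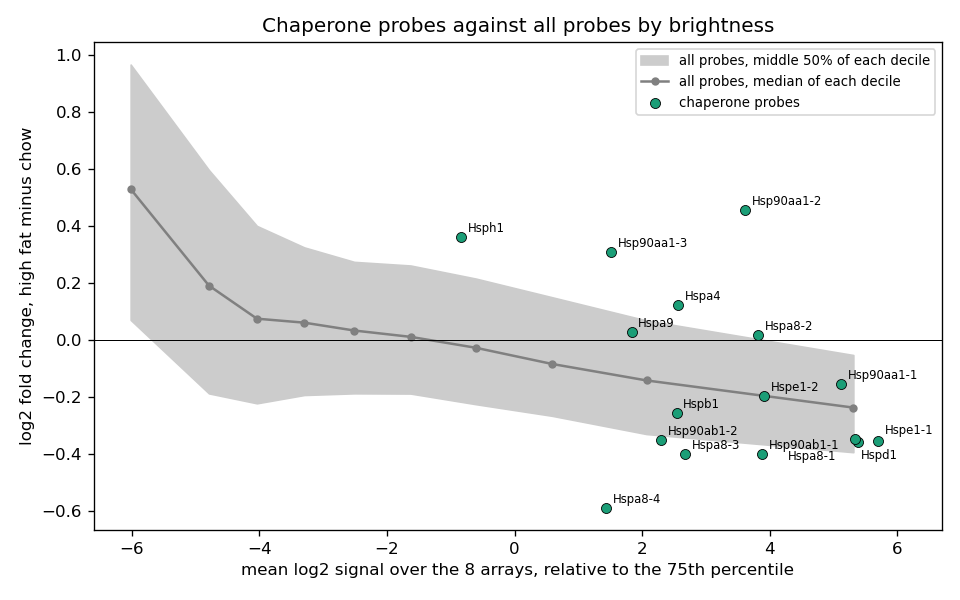
Log2 fold change (high fat minus chow) against mean log2 signal over the 8 arrays for the 16 chaperone probes (green, gene and probe number), with the median of all probes in each decile of brightness (grey line, drawn at the midpoint of the decile) and their middle 50% (band). The line falls from 0.53 to −0.24 with brightness, and of the chaperone probes 8 lie below and 8 above the median of their own decile.

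The sign of the group's median relative to all probes depended on the background correction and on the slide. The median of the 16 relative to the median of all probes was −0.23 as reported, −0.03 after quantile normalization, −0.03 in the authors' value table and −0.08 with cyclic loess. It was 0.26 with a normexp background, which moved the median of all probes to −0.30, and 0.02 with normexp followed by quantile normalization. With the high fat arrays of slide 1 alone it was 0.04, and with those of slide 2 alone −0.32. The median of the 16 itself, without this subtraction, was above 0 only with normexp followed by quantile normalization (0.028). Hsp90aa1 probe 2, Hsph1, Hspa8 probes 1, 3 and 4, Hspb1, Hspd1 and Hspe1 probe 1 kept their sign in every alternative where they were fitted, on the scale of each setting. A single chaperone probe passed in 2 of the 24 alternatives: Hsp90aa1 probe 2 at 0.54 with normexp followed by quantile normalization (limma adjusted p = 0.049; 0.049 to 0.85 over its 23 alternatives), and Hspa8 probe 1 at −0.46 with array weights (adjusted p = 0.0448; 0.0448 to 0.889 over its 24 alternatives).

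**Figure D4:**
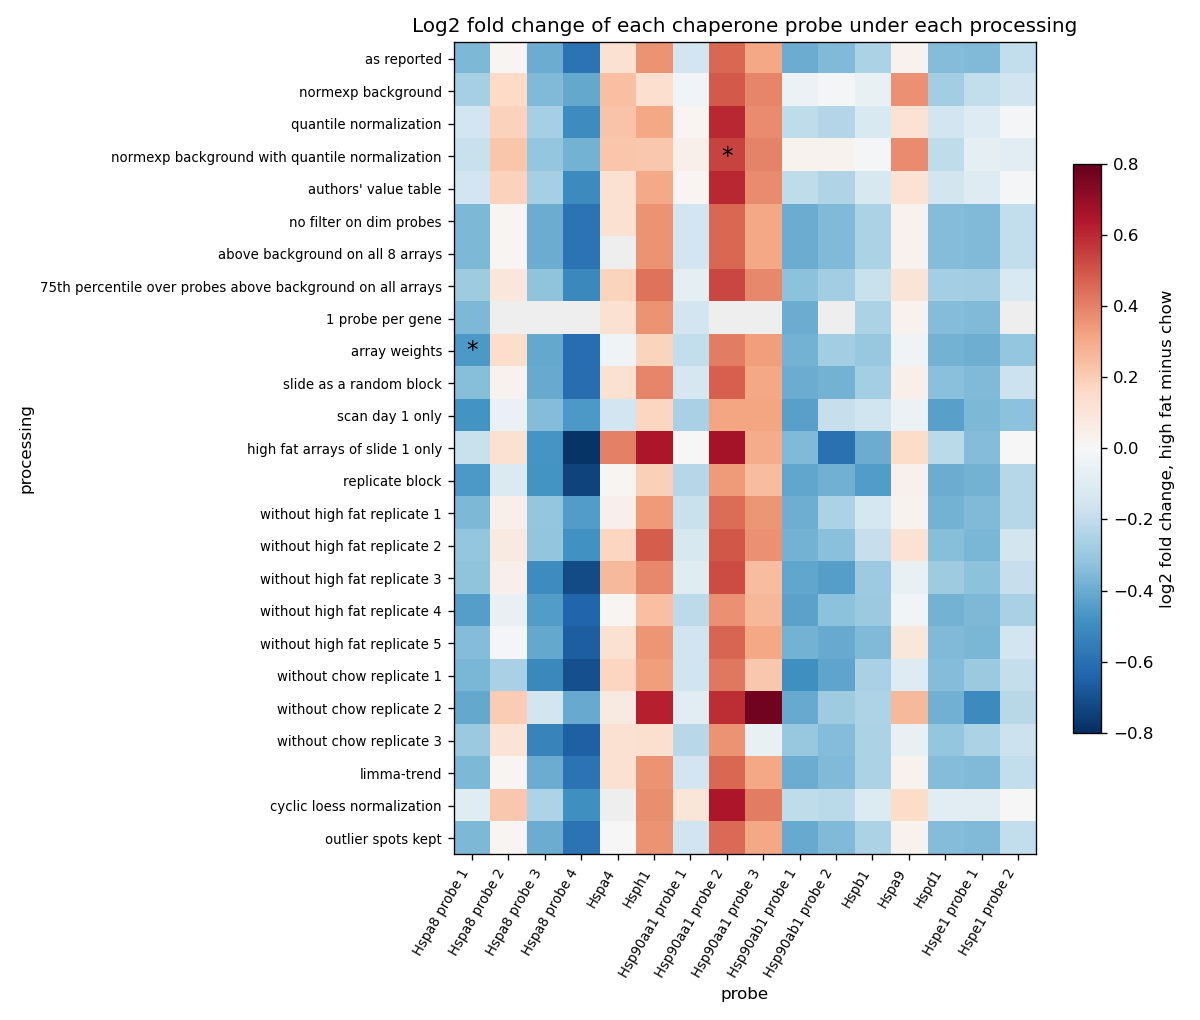
Log2 fold change (colour, high fat minus chow) of each chaperone probe (columns) under each processing (rows), with a star where the limma adjusted p was under 0.05 and pale grey where the probe was not fitted. There are 2 stars, in different probes and different rows.

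The partners of these chaperones were described through 9 lists of 99 genes, of which 92 were matched and tested, each by its probe with the highest mean. Of the 92, 1 passed higher and 0 lower, against 3% and 0.453% of all probes, and 6 had an unadjusted p under 0.05 against 20.1%. The J-domain partners, which bring clients to Hsp70, had 0 of 11 passing and a median difference of −0.04. The nucleotide exchange and handover factors had 0 of 10 passing and a median of −0.04; the smallest p was that of Hspbp1, an inhibitor and exchange factor of Hsp70 (−0.41 ± 0.14 SE, limma adjusted p = 0.17). Of 14 partners of Hsp90 none passed, 10 differences were below 0 and the median was −0.19. Fkbp4, an immunophilin of steroid receptor complexes, had −0.48 ± 0.14 (SE; adjusted p = 0.114) and passed only with array weights (0.0385; range over its alternatives 0.0385 to 0.763).

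The cytosolic chaperonin TRiC and its supplier prefoldin had 0 of 12 passing and a median of −0.11, with the smallest p for the prefoldin subunit Pfdn1 (−0.33 ± 0.13 SE, limma adjusted p = 0.21). Among 15 mitochondrial chaperones and proteases none passed and the median was −0.13. Trap1, the mitochondrial Hsp90, had −0.41 ± 0.18 (SE; adjusted p = 0.249) and passed only with the arrays of scan day 1 (0.0465; range 0.0465 to 0.878). The heat shock factors, listed with the factor-binding protein Hsbp1, had 0 of 4 passing and 4 of 4 differences below 0, with a median of −0.21. The smallest p was that of Hsf4 (−0.35 ± 0.21 SE, limma adjusted p = 0.402). Hsf4 passed only with normexp followed by quantile normalization (−0.45, adjusted p = 0.0466, range over its alternatives 0.0466 to 0.93). In the endoplasmic reticulum, the compartment not covered by the 10 genes, 0 of 12 chaperones passed, 10 of 12 differences were above 0 and the median was 0.13. Dnajb9, a partner of the reticulum's Hsp70, had 0.35 ± 0.17 (SE; adjusted p = 0.297). Of 6 measured relatives of the cytosolic Hsp70 0 passed; Hspa1a and Hspa1b, the most heat-inducible Hsp70 genes, were not matched and are not analysed here. Hspa2 was above background on 3 high fat and 0 chow arrays and gets no fold (adjusted p = 0.114).

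The gene that rose was Cryab, the small heat shock protein alpha-B crystallin, a relative of Hspb1. It read 1.48, 1.55, 1.31, 1.16 and 1.13 on high fat arrays and −0.24, 0.23 and 0.29 on chow arrays. All high fat values lay above all chow values, 2.35-fold higher on average (log2 difference 1.23 ± 0.18 SE, limma adjusted p = 0.0102). The other 7 small heat shock proteins did not pass, and the list median was 0.17. Cryab is also abundant in striated muscle. The high fat mean of Ckm, muscle creatine kinase, lay 3.31-fold above a bound set for the chow arrays. That of Acta1, skeletal actin, lay 1.43-fold above its bound. These folds compare means and are not lower limits of an interval. Both were above background on 5 high fat and 0 chow arrays and so were kept through the high fat group alone, which makes these values a description. For each chow array the bound uses the dimmest signal that counted as above background there, or the probe's own signal where that was higher. Actn2 did not pass (adjusted p = 0.996), Tnnt3 was above background on no array, and Myh1 did not meet the filter on dim probes. The summed level of the 3 genes kept was 0.25 to 0.488 times the 75th percentile on high fat arrays and 0.224 to 0.256 times on chow arrays. The part of muscle RNA in the Cryab difference was not tested. The call of Cryab was lost with slide as a random block (1.23, adjusted p = 0.232), with a normexp background (0.79, adjusted p = 0.117) and with replicate number as a block (1.35, adjusted p = 0.0973).

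**Figure D5:**
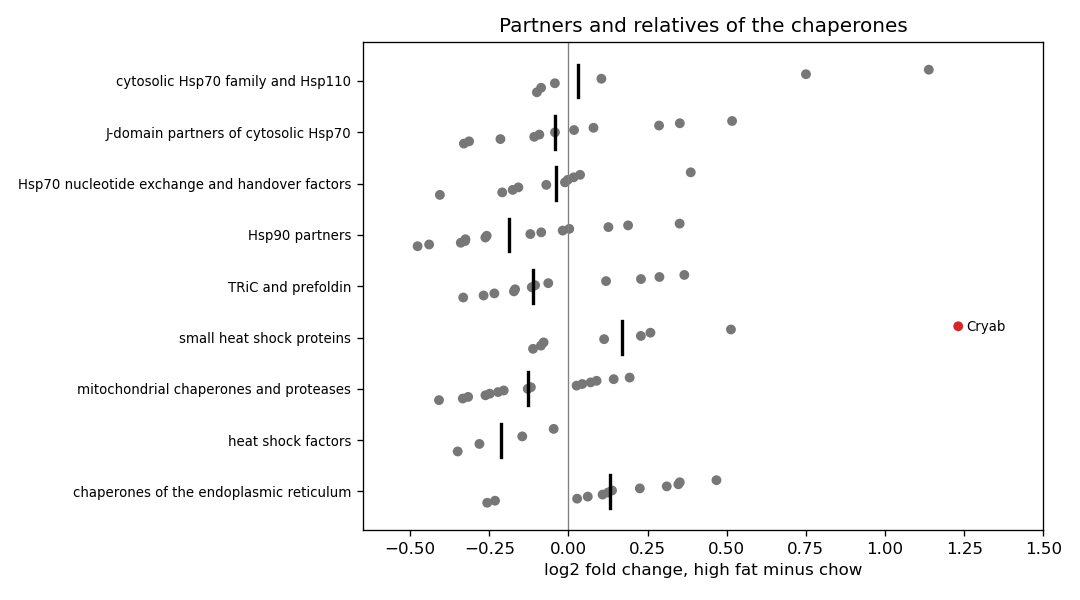
Log2 fold change (high fat minus chow) of 92 partners and relatives of the chaperones (1 point for each gene, by list), with the median of each list as a black bar and a gene that passed in red. Cryab is the single red point, at 1.23, and the list medians lie between −0.21 and 0.17.

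The early-response genes that mark handling of tissue, which can respond together with heat shock genes, also gave no call: 0 of 7 measured passed (limma adjusted p from 0.112; 2 at an unadjusted p under 0.05), and their median was −0.59. Markers of macrophages, sinusoidal endothelium, bile duct, stellate cells, lymphocytes, red cells, fat and pancreas gave 0 calls in 34 measured genes by limma, with 3 at an unadjusted p under 0.05.

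For 3 chaperones chosen for their roles, the genes with the most similar pattern over the 8 arrays were ranked by Pearson r among 10712 genes above background on every array, as a description of arrays that share 3 slides. Hspa8 (probe 1) was nearest to Pttg1ip (r = 0.996), T2 (0.981) and Cyp4f4 (0.981). Hsph1 was nearest to Arfip1 (r = 0.973), Etnk1 (0.963) and Rac2 (0.96), and Hspd1 to Plekhm1 (0.989), Mrpl38 (0.986) and Scamp3 (0.986). No chaperone of the 10 was among these 9 genes.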

How the data were processed

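Total RNA was labelled with Cy3 and hybridised to 1 single-colour Agilent array per sample. Scans were read with Agilent Feature Extraction 11.0.1.1, per the submitters' processing notes. Per the file headers, the deposited processed signal is an intensity, corrected for background and for trends across the array, and spots carry marks (other columns) of 0 or 1 per the file headers. The authors' value table holds log2 values whose columns have equal quantiles; how the authors made it is not stated.

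Outlier spots, 331 to 550 per array, were dropped; 0 were saturated. Log2 processed signals were averaged over a probe's spots and scaled to the array's 75th percentile. Of 30367 probes, the 25629 with a share of 0.5 or more of spots well above background on any 3 arrays were kept, whatever the diet. All probes were kept apart, and 18005 had a symbol through their RefSeq accession (GRCr8 table). High fat was compared with chow by lmFit and eBayes (limma 3.58.1, R 4.3.3), checked on simulated data. Groups and replicate numbers came from the sample titles; slide and scan day came from the file headers. Single values were compared by exact permutation over the arrays; the 19 pairs of probes were chosen after values were seen. Pearson r and figures used Python 3.11.15.

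Every probe of the 10 genes is named. From each list the up to 3 genes with the smallest adjusted p under 0.05 are named, or else the 1 with the smallest; for Hspa8, Hsph1 and Hspd1 the 3 nearest genes. The members and lists were chosen with earlier results of these data known. The closing section gives the alternatives tried: background, scaling, filters, array weights, slide, scan day, replicate block, arrays left out, the authors' value table and, added after the data were seen, cyclic loess and keeping outlier spots.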

Additional observations from a re-analysis of the deposited data

How the results depend on the processing

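The chaperone count of 0 was 1 with normexp followed by quantile normalization and 1 with array weights, and 0 in the other 22 alternatives. All probes passing numbered 884 (768 higher, 116 lower). The count was 136 with a normexp background (122 and 14), 2317 with normexp followed by quantile normalization (1114 and 1203), 3867 with array weights (2309 and 1558) and 76 with slide as a random block (76 and 0). It was 3159 for scan day 1, whose high fat arrays are those of slide 2 (2757 and 402), and 2003 for slide 1 (1036 and 967). It was 513 above background on all arrays (371 and 142), 1344 with cyclic loess (1017 and 327), 1208 with no filter (762 and 446) and 1157 with limma-trend (762 and 395). Quantile normalization gave 852 and 307, and the authors' values 898 and 339. Leaving out single arrays gave 402 to 864. The median of the chaperones ran from −0.28 to −0.17 with single arrays left out.

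Replicate numbers are shared between the diets, and deviations of same-numbered arrays from their group means correlated at 0.0345 to 0.0614. With so few arrays these correlations cannot tell whether same-numbered samples were paired. With the replicate block 0 probes passed; in that fit Hspa8 probe 2 stood at −0.12.

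Reversed signs were all in values that passed in neither setting. Hspa8 probe 2 was −0.052 on scan day 1, and −0.26 to 0.20 with single arrays left out. Hspa4 was −0.031 with array weights, −0.15 on scan day 1 and −0.0046 with outlier spots kept. Hsp90aa1 probe 1 was 0.016 after quantile normalization, 0.042 with normexp before it, 0.018 in the authors' value table, 0.0011 for slide 1 and 0.094 with cyclic loess. Hsp90aa1 probe 3 ran from −0.057 to 0.77 with single arrays left out. Hsp90ab1 probes 1 and 2 were both 0.028 with normexp followed by quantile normalization. Hspa9 was −0.028 with array weights, −0.047 on scan day 1, and −0.11 to 0.26 with single arrays left out. Hspe1 probe 2 was 0.0028 for slide 1 and 0.0042 with cyclic loess. Hspa2 was −0.47 with a normexp background, and passed in 5 alternatives. Dnajc8, a J-domain protein, was −0.33 as reported, 0.0097 with a normexp background and 0.015 with quantile normalization after it. The cause of these reversals was not tested. The chaperone probes were above background on every array where they were measured.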
